A study of Mus musculus with 9 samples.

Results

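Genes that make, store, break down or sense monoamines and acetylcholine were followed through RNA-seq libraries of mouse pancreatic neuroendocrine tumors and normal islets. The 10 members were Tph1, Tph2, Th and Ddc (synthesis of serotonin and dopamine), Slc18a1 and Slc18a2 (loading of vesicles), Maoa and Maob (breakdown of monoamines), Ache (breakdown of acetylcholine) and Chrm3 (a receptor for acetylcholine). They are 10 of the 54347 genes listed, and 7 of them passed the filter on low values and were among the 15532 genes tested. Tph1, Tph2 and Slc18a2 did not pass it. Of the members, 9 were chosen by function, but Ache was selected on its low level in tumors against islets, so these levels of Ache are a description without a test. The 6 tumors were INS-p25OE, the label for bi-transgenic mice that carry tetOp-p25GFP and Ins2-rtTA, in which doxycycline given from weaning switches on a GFP fusion of p25, an activator of the kinase Cdk5, in insulin-producing beta cells. M1, M2 and M3 were functional tumors, a term for those whose secreted hormone rises in the blood, M4, M5 and M6 were non-functional, and the titles of the first 3 also bear the word "Inulin". NI1, NI2 and NI3 were normal islets labelled C57BL/6. M2 was the only female, and neither ages nor pooling of animals were given for these libraries. The labels do not say that the samples came from separate animals, so p-values measure the spread between these samples only.

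Tryptophan hydroxylase (Tph1 or Tph2) starts serotonin synthesis and tyrosine hydroxylase (Th) starts dopamine synthesis, and aromatic amino acid decarboxylase (Ddc) finishes both. Vesicular monoamine transporters load the products into secretory granules, and the monoamine oxidases degrade them. In islets, beta cells release serotonin together with insulin, and acetylcholine acts on their muscarinic M3 receptor (Chrm3) to raise insulin release until acetylcholinesterase (Ache) hydrolyses it.

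RefSeq promoters of GRCm38.p6, from 250 bases before to 50 bases after a start site, were found for 8 of the 10 members, with 10 windows in all. Stretches of 30 bases that hold a match are shown for Th, Tph2, Ddc and Slc18a2, the members whose windows held one, and capitals mark the match. The motifs were searched on both strands, and the matches shown did not overlap one another. The cAMP response element TGACGTCA occurred in 1.79% of 32851 promoters, among them those of Th (chr7:142900022-142900051, minus strand, match starting 45 bases upstream of the start site) and Slc18a2 (chr19:59260863-59260892, plus strand, 4 bases upstream).
Th, cAMP response element: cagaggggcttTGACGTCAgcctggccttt
Slc18a2, cAMP response element: agcgctgtccgTGACGTCAgagccggactg
The AP-1 letters TGANTCA occurred in 7.81% of promoters, here in Th (chr7:142900187-142900216, minus strand, 210 bases upstream) and Ddc (chr11:11898255-11898284, minus strand, 129 bases upstream).
Th, AP-1: agggcggagggTGATTCAgaggcaggtgcc
Ddc, AP-1: agggcttgttgTGAATCAagctcactgggt
The TATA letters TATAAA occurred in 13.6% of promoters, here in Tph2 (chr10:115185035-115185064, minus strand, 30 bases upstream) and, on the opposite strand of its promoter, in Ddc (68 bases upstream, not shown).
Tph2, TATA: ctcagtcactcaTATAAAggaacacgggga
These matches describe letters and not occupied sites.

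Each library held 36468280 to 63637175 estimated counts, so that 3 counts, taken as the floor of detection, stood for 0.0425 to 0.119 CPM (each library's counts relative to its TMM-scaled total, the unit of every level below). Mitochondrial genes took 32.1% of the counts in M4 and 1.76% to 8.41% in the other libraries. The library labelled NI1 went against its label in some measures. Cdk5r1, the gene from which p25 derives, was at 149 to 401 CPM in the tumors, 280 CPM in the library labelled NI1, 18.4 CPM in NI2 and 12.5 CPM in NI3. Ins1 was at 21653 CPM in the library labelled NI1, against 57143 and 75991 CPM in NI2 and NI3 and at most 21305 CPM in a tumor. Some other genes stood above every tumor there, though below NI2 and NI3. Gcg was at 787 CPM and Fos at 156 CPM in that library, against at most 239 and 3.92 CPM in a tumor. Of the genes tested, 86.1% lay inside the range of the 6 tumors in the library labelled NI1, against 58.6% in NI2 and 53.4% in NI3. Among the 10 members the number inside that range was 6 in the library labelled NI1, 4 in NI2 and 3 in NI3. The comparisons of members between tumors and islets are therefore given with and without that library.

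Per kilobase of exonic sequence, Ddc was the most abundant member in 8 of 9 libraries and second to Th in M5. Its level per kilobase was 111 ± 47.7 CPM in functional tumors, 80.2 ± 25.8 CPM in non-functional tumors and 108 ± 34.1 CPM in islets (SD, n = 3 each). Th followed in functional tumors at 39.5 ± 27.2 CPM per kilobase and in non-functional tumors at 33.1 ± 39.2 CPM per kilobase, above Maob at 23.0 ± 7.78 and 18.9 ± 5.50 CPM per kilobase. These neighbours overlapped within their spread, and in M1, M4 and M6 Maob was above Th. In each islet library Maob was above Th, with means of Maob at 27.4 ± 10.3 and Th at 9.92 ± 4.78 CPM per kilobase. Chrm3, Slc18a1 and Maoa formed the middle of the order, and their positions changed from library to library. Tph1, Tph2 and Slc18a2 were among the lowest 4 in each library. Ache moved most, from the 7th or 8th place in the tumors and the library labelled NI1 to the 4th place in NI2 and NI3.

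**Figure D1:**
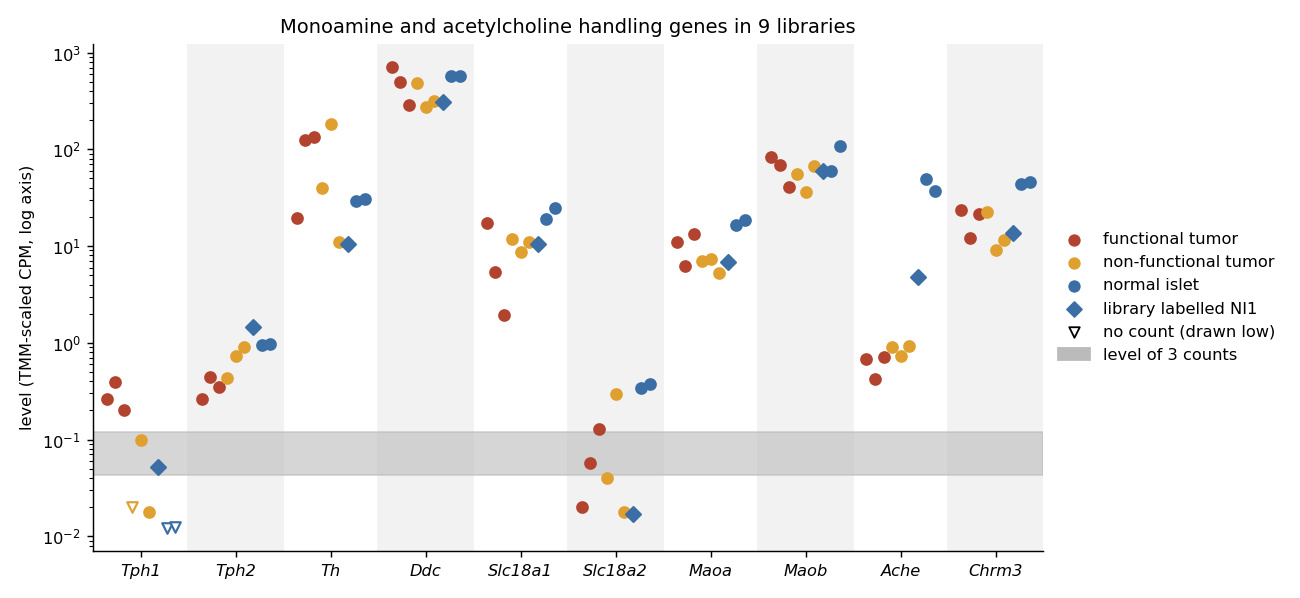
Level of each member (TMM-scaled CPM, log axis) in 9 libraries, from M1 at the left of each column to NI3 at the right. Triangles are libraries without a count, and the grey band is the level of 3 counts. Ache is at most 0.933 CPM in any tumor, 4.75 CPM in the library labelled NI1 and above 37 CPM in NI2 and NI3, while Ddc stays between 272 and 710 CPM throughout.

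Ache was low in every tumor and high in the islets, with the library labelled NI1 in between. Ache (ENSMUSG00000023328, chr5:137287519-137294466 of GRCm38, plus strand) encodes acetylcholinesterase, the enzyme that ends the acetylcholine signal. Its level was 0.685, 0.425 and 0.709 CPM in M1 to M3 and 0.912, 0.737 and 0.933 CPM in M4 to M6. NI2 reached 49.2 CPM, NI3 37.4 CPM and the library labelled NI1 4.75 CPM. Every tumor lay below every islet library, which was also the case for 3.17% of the genes tested, and the library labelled NI1 was still 5.09-fold above the highest tumor. Tumors averaged 0.733 ± 0.184 CPM (SD, n = 6) and islets 30.5 ± 23.0 CPM (SD, n = 3), 41.5-fold apart, and NI2 and NI3 alone averaged 43.3 ± 8.39 CPM (SD, n = 2). NI2 was 10.4-fold and NI3 7.87-fold above the library labelled NI1, so the spread among islets was larger than that among tumors. The fitted log2 fold change was -5.38 with all libraries and -5.89 without the library labelled NI1, and it ran from -5.94 to -4.76 over 22 alternatives. The tumors held 23 to 53 counts of Ache per library, above the floor. Ache shares its locus with the annotated genes Mir8116 and Gm42456, and reads of overlapping genes were not told apart by strand. In bulk tissue, fewer cells of a type and less RNA per cell cannot be told apart.

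With all libraries, 1 lymphoid gene and 8 genes that respond to dissociation of tissue were lower in tumors at an adjusted p under 0.05. Of 6 lymphoid markers 1 passed, Ms4a1, a B cell surface protein, which was lower in tumors (log2 fold change -4.64, adjusted p = 0.00993, edgeR). In this fit of all libraries, used for each list here, 0.258% of all genes tested passed. The summed level of the list was 19.2 to 116 CPM in tumors and 161 to 188 CPM in islets. Cd79a, the highest of the list, overlapped, at 2.04 to 89.8 CPM in tumors and 44.9 to 92.4 CPM in islets. Its highest islet value was in the library labelled NI1. Ms4a1 itself was at 13.0 CPM in the library labelled NI1 and at 28.6 CPM in NI2 and in NI3. Of 10 genes that respond to dissociation of tissue, 8 were lower in tumors, and their sum was 84.6 to 151 CPM in tumors, 551 CPM in the library labelled NI1, 2579 CPM in NI2 and 1367 CPM in NI3. The acinar list passed in 0 of 8 genes, with sums of 1.01 to 1.11 CPM in functional tumors, 47.8 to 356 CPM in non-functional tumors and 661, 842 and 12481 CPM in the library labelled NI1, NI2 and NI3. The neuron list, at 202 to 275 CPM in tumors and 188 to 223 CPM in islets, passed in 0 of the 5 genes tested. With the library labelled NI1 left out, 3 lymphoid, 9 dissociation and 1 acinar gene fell, and Elavl4 of the neuron list, named after its value was seen, rose (log2 fold change 1.03, adjusted p = 0.035, edgeR). In that setting 8.51% of all genes tested were called. The part of these cells and responses in the level of Ache was not tested.

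Between functional and non-functional tumors, the difference in Ache did not pass the test. The functional tumors averaged 0.606 ± 0.158 CPM and the non-functional tumors 0.860 ± 0.107 CPM (SD, n = 3 each), and no functional tumor reached the lowest non-functional tumor, a pattern found for 6.24% of the genes tested. The log2 fold change was -0.51 (standard error, SE, 0.69, adjusted p = 0.823, edgeR's quasi-likelihood test, Benjamini-Hochberg adjustment), smaller than its standard error with all libraries. Without the library labelled NI1 in the fit, the value was -0.51 (SE 0.31, adjusted p = 0.565). Acinar markers had a median log2 fold change of -9.12 between the same groups. Of these 8 markers, 8 reached an unadjusted p under 0.05 in edgeR, as did 10.3% of all genes tested, and 0 an adjusted p under 0.05. Their part in the levels of Ache and of Tph1, which also separates these groups below, was not tested.

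Chrm3 was lower in tumors than in NI2 and NI3 but overlapped the library labelled NI1. Chrm3 (ENSMUSG00000046159, chr13:9875486-10360847, minus strand) encodes the muscarinic receptor through which acetylcholine amplifies insulin release. Its level was 23.6, 12.0 and 21.7 CPM in M1 to M3 and 22.5, 9.09 and 11.7 CPM in M4 to M6. The library labelled NI1 had 13.6 CPM, within the range of the tumors, while NI2 had 43.5 CPM and NI3 had 46.3 CPM. With all libraries the log2 fold change was -1.04 (SE 0.42, adjusted p = 0.217, edgeR), with an unadjusted p of 0.0311. Without the library labelled NI1 it was -1.42 (SE 0.36, adjusted p = 0.0433, edgeR), and all 6 tumors then lay below both remaining islet libraries, as was the case for 16.3% of the genes tested. In that setting edgeR called 1321 of the 15532 genes tested. Chrm3 also passed with DESeq2 (adjusted p = 0.00886, among 2950 of 15532 genes called) and with limma-voom (adjusted p = 0.0321, among 1065 of 15532 genes called). Neither of these fits was planned. The adjusted p of Chrm3 lay between 0.00886 and 0.669 over 22 alternatives. Functional tumors averaged 19.1 ± 6.22 CPM and non-functional tumors 14.4 ± 7.10 CPM (SD, n = 3 each), with overlapping values (log2 fold change 0.41, SE 0.51, adjusted p = 0.805, edgeR). The locus of Chrm3 holds 6 further annotated genes whose reads could not be separated by strand.

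**Figure D2:**
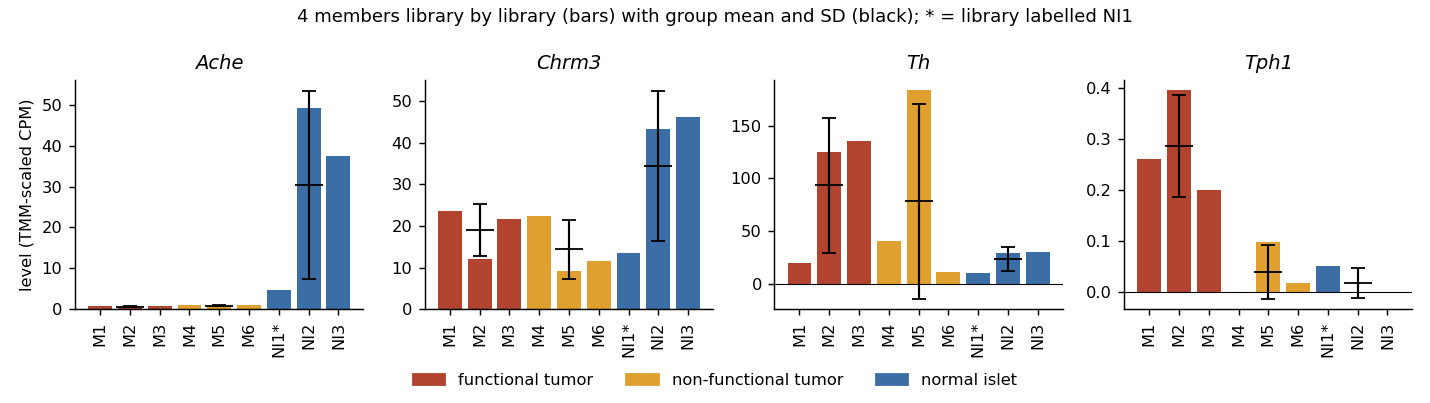
Levels of Ache, Chrm3, Th and Tph1 (TMM-scaled CPM, linear axes from each panel's own scale) in each library, with the mean and SD of each group of 3 in black. Ache and Chrm3 are highest in NI2 and NI3, Th exceeds 100 CPM in M2, M3 and M5, and Tph1 is highest in the 3 functional tumors, where it does not pass 0.396 CPM.

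Serotonin synthesis starts with a choice of enzyme. Neither tryptophan hydroxylase passed the filter on low values, and of the 2 only Tph1 had libraries at or below the floor. Tph1 (ENSMUSG00000040046, chr7:46644641-46672537, minus strand), the hydroxylase of peripheral tissues, had 13, 28 and 11 counts in M1, M2 and M3, which stood for 0.262, 0.396 and 0.200 CPM. It had 0, 4 and 1 counts in M4 to M6, 3 counts in the library labelled NI1 and 0 counts in NI2 and NI3. The 3 functional tumors thus lay above all other libraries, and 5 of the 9 libraries were at or below 3 counts. Among the 31582 genes with a count in some library, 6.26% were higher in each functional than in each non-functional tumor. Fitted without a filter, the log2 fold change of Tph1 was 2.83 between functional and non-functional tumors (SE 1.48, adjusted p = 0.756, edgeR) and 3.00 between tumors and islets (SE 1.53, adjusted p = 0.375). Without the library labelled NI1 the latter was 6.02 (SE 2.34, adjusted p = 0.192), where both remaining islet libraries had no count, and these values depend on the prior count because most libraries were at the floor. Mast cells, which also make serotonin through Tph1, were looked for by their proteases. Tpsb2 was at 0.0604, 1.25 and 2.02 CPM in M1 to M3 and at 0.0396, 1.03 and 0.211 CPM in M4 to M6. The proteases Cpa3, Mcpt4 and Cma1 did not pass the filter and were at most 1.27, 1.65 and 1.89 CPM in a tumor. The summed mast cell list, most of it Kit, was at 19.2 to 69.5 CPM in tumors and at 8.05 to 34.4 CPM in islets. Without the library labelled NI1, Kit was higher in tumors (log2 fold change 2.28, adjusted p = 0.0315, edgeR). Tpsb2, the other mast cell gene tested, did not pass (adjusted p = 0.0971), and with all libraries neither did. The part of mast cells in the level of Tph1 was not tested.

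Tph2 had its highest levels in the islet libraries. Tph2 (ENSMUSG00000006764, chr10:115078641-115185022, minus strand), the hydroxylase of serotonin neurons, had 0.262, 0.439 and 0.345 CPM in M1 to M3 and 0.436, 0.737 and 0.915 CPM in M4 to M6. NI2 had 0.952 CPM, NI3 0.967 CPM and the library labelled NI1 1.46 CPM. All tumors lay below all islet libraries, which held for 2.66% of the genes with a count, and the counts ranged from 11 to 85. The highest tumor and the lowest islet library, 0.915 and 0.952 CPM, were close together. Without a filter, the log2 fold change was -1.08 (SE 0.63, adjusted p = 0.434, edgeR), and -0.84 without the library labelled NI1 as well (SE 0.75, adjusted p = 0.546).

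The ratio of both hydroxylases within a library needs no scaling between libraries. On the log2 scale of counts plus 3, per kilobase, Tph1 to Tph2 was -1.10, -1.23 and -1.75 in M1 to M3 and -3.32, -3.34 and -4.88 in M4 to M6. It was -4.97, -4.91 and -4.91 in the library labelled NI1, NI2 and NI3, where Tph1 was at or below the floor. The functional tumors were highest. Tph1 was also at or below the floor in M4 and M6, so the positions of these tumors and of the islets are set by the 3 added counts and by Tph2, and the difference of 2.33 between tumors and islets (2.30 without the library labelled NI1) is given without a test. Functional and non-functional tumors differed by 2.49 with the same limit for M4 and M6 (exact two-sided permutation p = 0.1, the smallest that 20 labelings allow, adjusted p = 0.3 over 6 ratio tests).

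**Figure D3:**
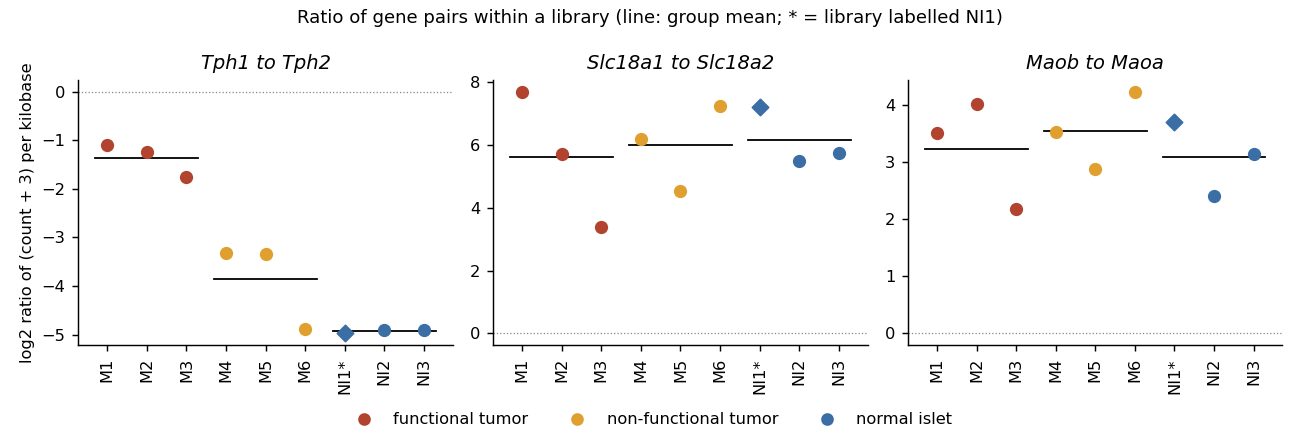
Log2 ratio of (count + 3) per kilobase of exonic sequence for 3 pairs of genes that carry out the same step, in each library, with the mean of each group as a line. Tph1 to Tph2 runs from -1.10 in M1 down to -4.97 in the library labelled NI1, whereas the other pairs overlap between groups.

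Ddc, shared by both syntheses, was the most abundant member. Ddc (ENSMUSG00000020182, chr11:11814101-11898144, minus strand) was at 710, 493 and 285 CPM in M1 to M3 and at 489, 272 and 313 CPM in M4 to M6. NI2 had 570 CPM, NI3 568 CPM and the library labelled NI1 306 CPM. Tumors and islets overlapped, and the log2 fold change was -0.17 (SE 0.35, adjusted p = 0.818, edgeR). The value was -0.42 without the library labelled NI1 (SE 0.38, adjusted p = 0.518). Between functional and non-functional tumors it was 0.47 (SE 0.40, adjusted p = 0.711).

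Th differed more among the tumors than between tumors and islets. Th (ENSMUSG00000000214, chr7:142892752-142931128, minus strand), which limits the rate of dopamine synthesis, was at 19.3, 125.5 and 135.4 CPM in M1 to M3 and at 40.1, 183.9 and 10.9 CPM in M4 to M6. NI2 had 29.4 CPM, NI3 30.6 CPM and the library labelled NI1 10.4 CPM. M2, M3, M4 and M5 stood above all islet libraries, and M1 and M6 stood below NI2 and NI3, so that functional and non-functional tumors were found on both sides. The highest tumor was 16.8-fold above the lowest, a spread reached by 7.03% of the genes tested. Tumors averaged 85.9 ± 71.8 CPM (SD, n = 6) and islets 23.5 ± 11.3 CPM (SD, n = 3). The log2 fold change was 1.87 (SE 0.87, adjusted p = 0.266, edgeR), and 1.52 without the library labelled NI1 (SE 1.00, adjusted p = 0.363). Between functional and non-functional tumors it was 0.25 (SE 0.96, adjusted p = 0.948), and it changed sign when M2, M3, M4 or M6 was left out. Dbh, which turns dopamine into noradrenaline, had no count in any library.

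Of the vesicular monoamine transporters, Slc18a1 was the one detected well above the floor. Slc18a1 (ENSMUSG00000036330, chr8:69037711-69089235, minus strand), which encodes VMAT1 of endocrine cells, was at 17.3, 5.36 and 1.93 CPM in M1 to M3 and at 11.9, 8.75 and 10.96 CPM in M4 to M6. NI2 had 19.3 CPM, NI3 24.9 CPM and the library labelled NI1 10.5 CPM. All tumors lay below NI2 and NI3, as was the case for 16.3% of the genes tested, and the library labelled NI1 was inside their range. The log2 fold change was -0.96 (SE 0.54, adjusted p = 0.347, edgeR), and -1.24 without the library labelled NI1 (SE 0.60, adjusted p = 0.219). Functional tumors were both the highest and the lowest of the 6, and their difference from non-functional tumors was -0.36 (SE 0.67, adjusted p = 0.878), which turned to 0.10 without M3. Its locus overlaps Atp6v1b2 and Gm15716 on the other strand. Slc18a2 (ENSMUSG00000025094, chr19:59260896-59296012, plus strand), which encodes VMAT2 of monoamine neurons, had 1, 4 and 7 counts in M1 to M3 and 1, 12 and 1 counts in M4 to M6. It had 1 count in the library labelled NI1, 14 in NI2 and 15 in NI3, and 4 libraries were at or below the floor. NI2 and NI3, at 0.342 and 0.372 CPM, exceeded every tumor, the highest of which was M5 at 0.295 CPM. Among the genes tested, which do not include Slc18a2, 16.3% had this order. Without a filter the log2 fold change was -1.35 (SE 1.10, adjusted p = 0.528, edgeR), and -1.90 without the library labelled NI1 as well (SE 1.09, adjusted p = 0.379). The within-library ratio of Slc18a1 to Slc18a2 ranged from 10.5-fold in M3 to 208-fold in M1, and differed by -0.36 on the log2 scale between tumors and islets (exact permutation p = 0.762, adjusted p = 0.8), and by 0.17 without the library labelled NI1.

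Maob was the more abundant monoamine oxidase throughout. Maob (ENSMUSG00000040147, chrX:16709282-16817366, minus strand) was at 83.4, 68.6 and 40.7 CPM in M1 to M3 and at 55.3, 36.2 and 66.5 CPM in M4 to M6. NI2 had 59.4 CPM, NI3 109.6 CPM and the library labelled NI1 60.2 CPM. The groups overlapped, with a log2 fold change of -0.39 in tumors against islets (SE 0.30, adjusted p = 0.493, edgeR), of -0.53 without the library labelled NI1 (SE 0.34, adjusted p = 0.35), and of 0.29 in functional against non-functional tumors (SE 0.35, adjusted p = 0.803). Maoa (ENSMUSG00000025037, chrX:16619698-16687818, plus strand), whose enzyme prefers serotonin, was at 10.9, 6.27 and 13.5 CPM in M1 to M3 and at 7.05, 7.30 and 5.24 CPM in M4 to M6. NI2 had 16.6 CPM, NI3 18.5 CPM and the library labelled NI1 6.89 CPM. NI2 and NI3 exceeded every tumor, as held for 16.3% of the genes tested, and the library labelled NI1 did not. The log2 fold change of Maoa was -0.74 (SE 0.39, adjusted p = 0.31, edgeR), -1.07 without the library labelled NI1 (SE 0.37, adjusted p = 0.101), and 0.65 between functional and non-functional tumors (SE 0.43, adjusted p = 0.623). Per kilobase, Maob exceeded Maoa from 4.50-fold in M3 to 18.8-fold in M6, and this ratio did not separate tumors from islets (log2 difference 0.31, exact permutation p = 0.548, adjusted p = 0.8, and 0.61 without the library labelled NI1).

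Of the 6 tested members other than Ache, 0 differed between tumors and islets at an adjusted p under 0.05 in edgeR, where 0.258% of all genes tested did. At an unadjusted p under 0.05 the number was 1 (Chrm3), where 19.8% of all genes passed. With the same libraries, DESeq2 called 0 of the 6 and 8.06% of all genes, and limma-voom 0 of the 6 and 0.212%. Without the library labelled NI1 edgeR called 1 of the 6, Chrm3, where 8.51% of all genes were called. Between functional and non-functional tumors, 0 of the 7 tested members passed at an adjusted p under 0.05 (0.00% of all genes) and 0 at an unadjusted p under 0.05 (10.3%), while DESeq2 called 0 of them (0.715% of all genes) and limma-voom 0 (0.00%). A missed threshold does not show that levels were equal, since the standard errors between both tumor groups were 0.35 to 0.96 on the log2 scale.

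**Figure D4:**
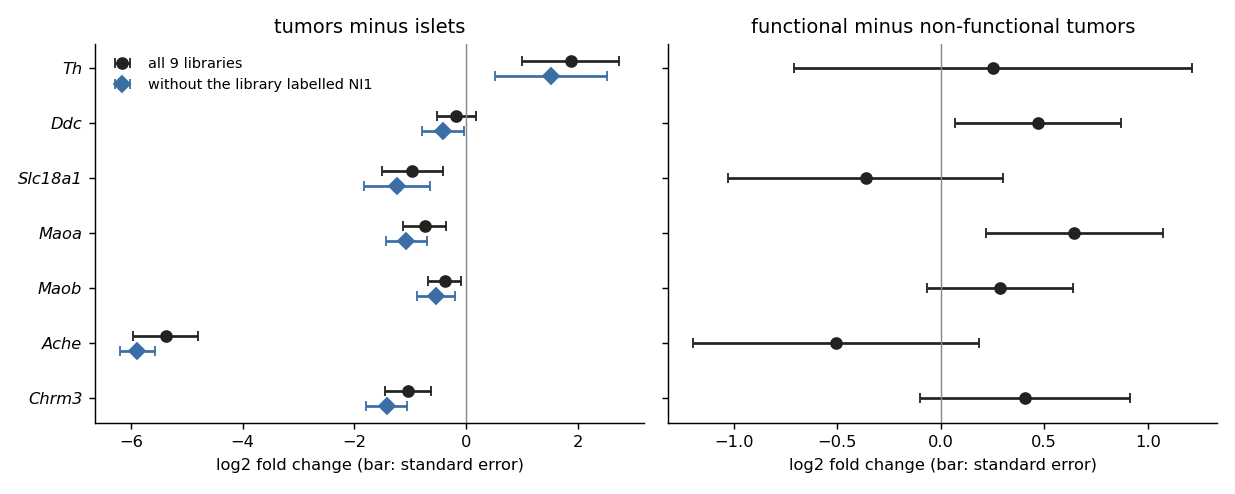
Log2 fold change with its SE for the 7 members that passed the filter, for tumors minus islets (left, all libraries in black, without the library labelled NI1 in blue) and functional minus non-functional tumors (right, on its own scale). Leaving out the library labelled NI1 moves Chrm3 from -1.04 to -1.42 and Ache from -5.38 to -5.89, and the values on the right lie between -0.51 and 0.65.

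Around the members, 94 genes of the same pathways were read in 9 lists, of which 43 were tested and 9 had no count in any library. Between tumors and islets 0 rose and 0 fell at an adjusted p under 0.05 in edgeR (6 at an unadjusted p under 0.05, or 14.0% of those tested, where 19.8% of all genes passed), and between functional and non-functional tumors 0 did (6 at an unadjusted p under 0.05, where 10.3% of all genes passed). With the library labelled NI1 left out, 1 rose and 3 fell, together 9.30% of the pathway genes tested, near the 8.51% of all genes called in that setting. The median log2 fold change of all genes tested was 0.03 with all libraries and 0.05 without the library labelled NI1.

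In the list of acetylcholine synthesis, transport and breakdown (3 of 7 tested, median log2 fold change 0.22), the gene that fell was Colq, whose collagen tail anchors acetylcholinesterase. Colq was at 0, 0.0991 and 0.145 CPM in M1 to M3, 0.119, 0.344 and 0.176 CPM in M4 to M6, 1.18 CPM in the library labelled NI1, 2.88 CPM in NI2 and 2.13 CPM in NI3. It was lower in each tumor than in each islet library, as were 3.17% of the genes tested. Its log2 fold change was -3.80 (SE 0.79, adjusted p = 0.113, edgeR), and -4.07 without the library labelled NI1 (SE 0.86, adjusted p = 0.0231). DESeq2 called it with all 9 libraries (adjusted p = 0.00218), in a fit that called 8.06% of all genes where edgeR called 0.258%. Chat, which makes acetylcholine, was at most 0.270 CPM in any library. The vesicular acetylcholine transporter Slc18a3 was at most 0.0364 CPM in a tumor and at 0.223, 0.854 and 0.867 CPM in the library labelled NI1, NI2 and NI3. Among other acetylcholine receptors (6 of 20 tested, median 0.30, none called), the highest was Chrnb2, a nicotinic subunit, at 42.3 ± 8.84 CPM in tumors (SD, n = 6) against 54.2 ± 12.3 CPM in islets (SD, n = 3, adjusted p = 0.387, edgeR). Chrm2 changed by -1.29 (adjusted p = 0.273) and Chrm4 by 0.96 (adjusted p = 0.561), neither past the threshold. In the list of muscarinic and beta cell serotonin signalling (11 of 11 tested, median 0.12), Plcb1, a phospholipase downstream of Gq-coupled receptors such as the M3 receptor, was at 18.5 ± 3.29 CPM in tumors (SD, n = 6), 18.5 CPM in the library labelled NI1, 34.5 CPM in NI2 and 32.4 CPM in NI3. It changed by -0.62 (adjusted p = 0.202, edgeR) and fell by 0.85 on the log2 scale without the library labelled NI1 (adjusted p = 0.0442).

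Dopamine receptors were represented by 1 tested gene of 5, Drd2, the D2 receptor that lowers insulin release from beta cells. Drd2 was at 5.48, 3.45 and 8.96 CPM in M1 to M3, at 4.91, 3.76 and 2.64 CPM in M4 to M6, at 2.26 CPM in the library labelled NI1, at 0.171 CPM in NI2 and at 0 CPM in NI3. Each tumor exceeded each islet library, which held for 4.50% of the genes tested. The log2 fold change was 2.56 (SE 1.16, adjusted p = 0.253, edgeR) and rose past the threshold at 5.79 without the library labelled NI1 (SE 1.14, adjusted p = 0.0192), a size that depends on the prior count because NI3 had no count. In the breakdown list (9 of 9 tested, median -0.15), Hnmt, which methylates histamine, was at 0.766 to 2.62 CPM in tumors, 2.76 CPM in the library labelled NI1, 7.22 CPM in NI2 and 8.38 CPM in NI3. Its log2 fold change was -2.11 (SE 0.55, adjusted p = 0.148, edgeR), and -2.46 without the library labelled NI1 (SE 0.56, adjusted p = 0.0304). DESeq2, with its larger share of calls, also called it with all libraries (adjusted p = 0.0147).

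The remaining pathway genes did not pass in edgeR, with or without the library labelled NI1. Of the cofactor and other synthesis list (7 of 11 tested, median -0.35), Gch1, which starts the synthesis of the tetrahydrobiopterin that the hydroxylases need, averaged 68.2 ± 39.3 CPM in tumors (SD, n = 6), against 93.9 ± 30.8 CPM in islets (SD, n = 3, adjusted p = 0.552, edgeR). Qdpr and Pcbd1, which regenerate tetrahydrobiopterin, changed by -0.47 and -0.35 (adjusted p = 0.276 and 0.368). Of the transporters (3 of 8 tested, median 0.31), Slc29a4, a low-affinity monoamine transporter of the plasma membrane, averaged 90.5 ± 29.7 CPM in tumors (SD, n = 6), against 73.2 ± 25.6 CPM in islets (SD, n = 3, adjusted p = 0.632). Slc22a2 changed by 1.11 and Slc18b1 by -0.33 (adjusted p = 0.452 and 0.476), and the serotonin transporter Slc6a4 was at most 0.471 CPM. Of the serotonin receptors 1 of 14 was tested, Htr1b, at 1.80 ± 1.53 CPM in tumors (SD, n = 6) against 3.03 ± 2.31 CPM in islets (SD, n = 3, adjusted p = 0.641, edgeR). Of the adrenergic receptors 2 of 9 were tested (median -0.28), and Adra2a, the receptor through which adrenaline restrains insulin release, averaged 129.0 ± 28.0 CPM in tumors (SD, n = 6), against 177.1 ± 24.0 CPM in islets (SD, n = 3, adjusted p = 0.262).

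The genes whose pattern was most like that of a member were found by the root mean square difference of log2(CPM + 1) over the 9 libraries, each profile centred on its mean. For Ache these were Nr1h4, the bile acid receptor, at 0.38, Cr2, a complement receptor of B cells, at 0.43, and Igkv5-39, an immunoglobulin segment, at 0.44, where the profile of Ache itself spread by 1.92. For Chrm3 they were Itprid2 (0.23), Mfsd9 (0.25) and Gbe1 (0.27). For Ddc they were Pno1 (0.17), Ttc19 (0.18) and Canx (0.19), and for Maob they were Selenoi (0.16), Tmem102 (0.16) and Alg2 (0.17). For Th, added after its values were seen, they were Atp4a, a subunit of the gastric proton pump (0.56), Prr29 (0.56) and Cib3 (0.62). Atp4a was at 14.6, 19.1 and 18.0 CPM in M2, M3 and M5, the tumors highest in Th, and at 1.04 CPM in M6.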

How the data were processed

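RNA of 6 tumors and 3 islet samples was sequenced as single-end reads from libraries whose kit does not mark strand. Per the labels, the authors trimmed with Trimmomatic 0.38, quantified with Salmon 1.4.0 on mm10 and used DESeq2. The deposited values are estimated counts, whole and unscaled, so none was rounded. The step from transcripts to genes is not given in the sources used here.

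Identifiers were matched to GENCODE for GRCm38 (54094 of 54347, the 253 unmatched holding 0.0121% of the counts). The filter kept genes that reached 1 CPM in 3 or more libraries out of 9. After TMM scaling, the quasi-likelihood test of edgeR 4.0.16 (R 4.3.3) compared 6 tumors against 3 islets, and functional against non-functional tumors in a fit of 3 groups. P-values were two-sided and adjusted by Benjamini-Hochberg over all genes tested. DESeq2 1.42.0 and limma 3.58.1 (voom) were alternatives, beside other filters and scalings, the replicate number as a block, and fits without each library. Levels per kilobase use the merged exons of a gene. The fits were tested on simulated counts, in which 200 genes were changed by 2 on the log2 scale. Each tool recovered at least 197 of them. For tumors against islets, 6.10% of the calls of edgeR were false, 24.0% of those of DESeq2 and 5.66% of those of limma-voom. For functional against non-functional tumors these shares were 3.41%, 15.5% and 3.90%.

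The members and lists were chosen with earlier results of these data known. Named were all members, each pathway gene past the threshold in either comparison or without the library labelled NI1, and for lists without one the 3 tested genes of highest mean CPM, with genes of like pattern. An item that the rule names is not reported here. The marker genes Ms4a1, Cd79a, Tpsb2, Cpa3, Mcpt4, Cma1, Kit, Gcg and Fos and the pathway genes Dbh, Chat, Slc18a3 and Slc6a4 were named after their values were seen. Of the other marker lists (beta, alpha with delta and PP, Schwann, erythroid, platelet, enterochromaffin, fibroblast, endothelial and macrophage), 0 genes passed between tumors and islets with all libraries in edgeR. Without the library labelled NI1, 1 beta gene and 2 genes of the alpha, delta and PP list were lower, and 1 platelet and 2 macrophage genes were higher. In that setting 8.51% of all genes tested were called.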

Additional observations from a re-analysis of the deposited data

How the results depend on the processing

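The count of tested members other than Ache that differed between tumors and islets was 0 in 18 of 22 alternatives and 1 in the others, all without the library labelled NI1, with edgeR, DESeq2, limma-voom or no filter. The gene was Chrm3, with log2 fold changes of -1.42, -1.42, -1.55 and -1.39. Of these fits only that of edgeR with the main filter was planned. The others were unplanned, as was that of M1 to M3 against the islets without a block. With 1 library left out in turn, this count ran from 0 to 1, and the count between functional and non-functional tumors was 0 in all 17 alternatives. Without NI3 the number of all genes called was 7 in place of 40, and without M6 it was 217. Ddc turned to 0.0336 in M1 to M3 against the islets. With 1 library left out, Th ran from -0.26 to 1.82 and Slc18a1 from -1.53 to 0.10 between functional and non-functional tumors. Over the same fits, the log2 ratio of Maob to Maoa ran from -0.0288 to 0.61 (tumors against islets) and from -0.71 to 0.22 (functional against non-functional), and that of Slc18a1 to Slc18a2 from -0.74 to 0.17 and from -1.43 to 0.72. The ratio of Tph1 to Tph2 ran from 2.02 to 2.78 between tumors and islets and was 3.05 with a pseudocount of 1, a size that the added counts set. The cause of these changes of sign was not tested. Replicate numbers were shared by M1 to M3 and the islets only. The deviations of same-numbered samples had correlations of -0.05, 0.03 and -0.16, against -0.12 to 0.18 for samples of different numbers. With 3 samples in each group, these values cannot settle whether the numbers pair them. With the replicate block, 0 of the tested members passed, Ache included, and the number of all genes called was 35, against 130 without the block. Tph1, Slc18a2 and, in tumors, Colq rest on so few counts that differences below a few counts were not detectable at this depth.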
